A study of Saccharomyces cerevisiae with 30 samples.

Results

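The rows described here are those of the deposited expression table whose mean log2 ratio of evolved over ancestral cells was at least 1 in size, which is at least 2-fold, in 2 or more of 8 evolved tetraploid lines. Rows that also stood at least 2-fold apart between ancestral 4 and the diploid were left out. These rows, called members, were thus chosen by their line means and their ancestral 4/diploid mean. This left 93 of 6377 rows, or 1.46% of the table. Of 109 rows that were past the limit in 2 or more lines, 16 were left out for their ancestral 4/diploid mean and 0 for an identifier that begins with Q. For 2 of the 93 members there was no ancestral 4/diploid mean, so that exclusion could not apply to them. A further 532 rows were past the limit in exactly 1 line.

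Tetraploid budding yeast carry more sets of chromosomes than the haploid and diploid cells usually grown in the laboratory. Their cells are larger, lose chromosomes more often and tolerate heat poorly. In an evolution experiment, replicate cultures are diluted and regrown many times, so that faster growing mutants take over each culture on their own. A transcript that moves the same way in several such lines is a candidate for a shared response, whereas a transcript that moves in opposite ways marks a difference between the lines. At high temperature yeast broadly raises transcripts of chaperones and stress defence and lowers those of ribosome production, so a ratio between cultures in heat can reflect many transcripts at once.

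All strains were *Saccharomyces cerevisiae* of the W303 background, in which *SPO11*, a gene needed for meiotic recombination, had been deleted in ancestors, evolved clones and diploid alike. Each evolved clone was a single colony from a tetraploid culture kept for 1000 generations in YPD, a rich medium. The evolving cultures were kept at a lower temperature than the 36°C of the arrays. The ratios were therefore not measured at the temperature of the evolution. Each clone was chosen as the fittest of the colonies examined from its line. Each line therefore stands for 1 clone. On 3 arrays per line, evolved 1 to evolved 8 were each compared with ancestral 1 to ancestral 8. Ancestral 4 and evolved 4 were also each compared with diploid cells, again on 3 arrays, and all cultures were in log phase in YPD at 36°C. The 3 arrays of a comparison were technical triplicates, so the SD given with each mean is that of 3 arrays and covers technical error only. The culture named first always carried the same dye, with 0 arrays swapped, so a dye effect of a row and a real difference cannot be told apart.

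The 30 arrays held between 6092 and 6360 values each, with medians between −0.0324 and 0.0374. Arrays of the same group correlated over rows at 0.468 to 0.936 (Pearson). The identifiers beside the values are yeast systematic names, and the values did not bear them out. The 117 complete rows listed as ribosomal proteins, whose transcripts are known to move together, had a mean pairwise correlation over the 30 arrays of −0.00177, beside 0.00177 for 5701 complete rows. Rows are therefore given by their number in the deposited table, row 1 being the first, with no gene name, role or sequence. Line 1 correlated below 0 with line 3 over all rows, at −0.71, and with line 4, at −0.362. The labels give every array of line 1 the same dyes as the others, so its direction was kept as deposited, and the main counts that depend on it are also given with its sign turned. Whether the channels of line 1 were exchanged was not tested.

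The 93 members were shared by few lines. Exactly 2 lines were past the limit for 66 members, 3 lines for 21, 4 lines for 5 and 5 lines for 1. The lines past the limit had one sign for 58 members, or 62.4%, of which 27 were higher in the evolved clones and 31 lower. The other 35 members were higher in some evolved lines and lower in others. Line 1 was among the lines past the limit for 31 of these 35. Of the 61 members that were not past the limit in line 1, 57, or 93.4%, had one sign. With the sign of line 1 turned, 86 of 93 members, or 92.5%, had one sign. No member had one sign in all 8 lines, beside 1.91% of 6070 rows with 8 line means. These counts use the values that chose the members, and they are a description.

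**Figure D1:**
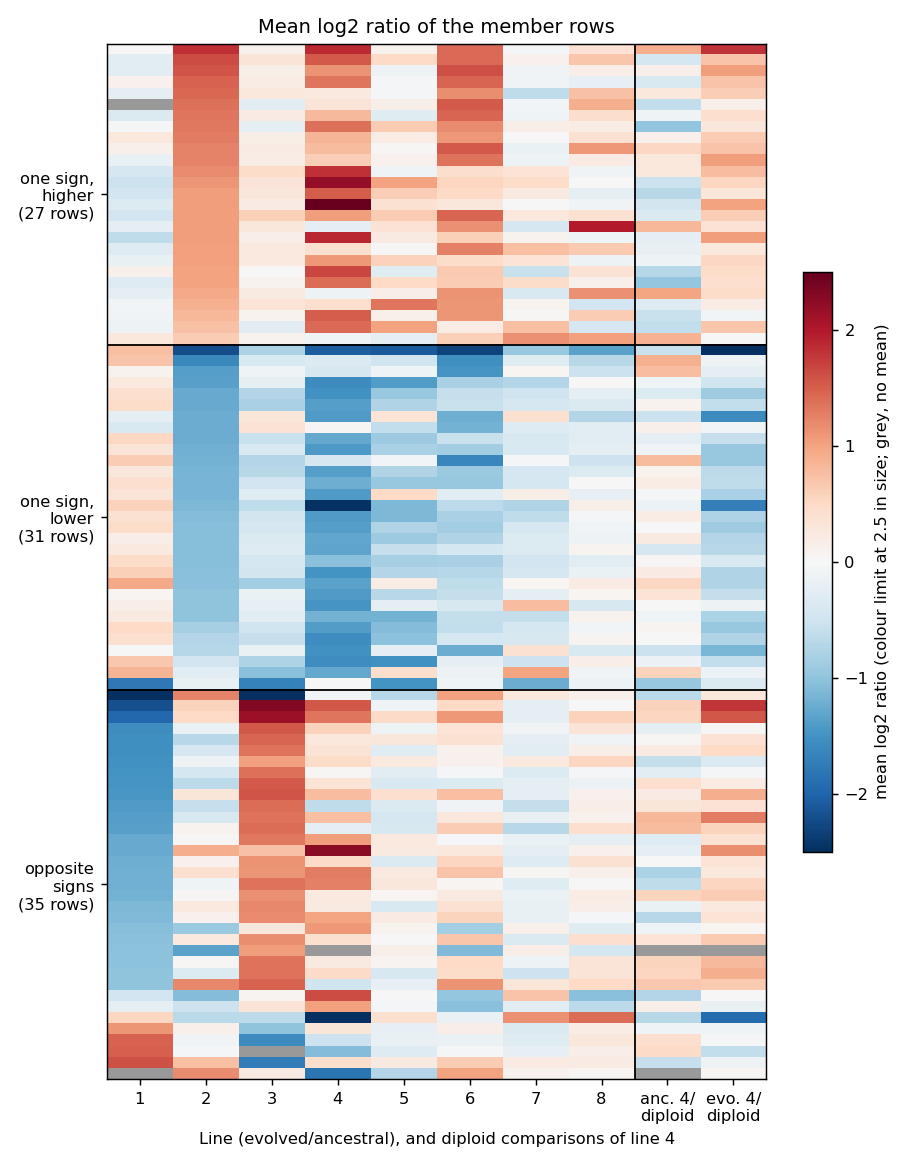
Mean log2 ratio of each of the 93 members (rows of the picture) in lines 1 to 8 as evolved over ancestral, and in ancestral 4/diploid and evolved 4/diploid, with grey where a row has no mean. Among the 27 members of one higher sign, most are past the limit in lines 2, 4 and 6 (22, 16 and 17), and among the 31 of one lower sign in lines 2 and 4 (25 and 26). Most of the 35 of opposite signs are blue in line 1 and red in line 3.

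Members made up very different shares of each line. In line 4, 54 members were past the limit, 25 higher and 29 lower, but they were only 10.3% of the 522 rows past it there, which were 8.41% of the rows with a mean, 3.88% higher and 4.53% lower. In line 2, 52 members were past the limit, 25 higher and 27 lower, and they were 56.5% of 92 such rows, beside a background of 1.45%, with 0.723% in each direction. Line 1 had 32 members past the limit, 4 higher and 28 lower, which was 82.1% of 39 rows at a background of 0.624%, with 0.096% higher and 0.528% lower. Most rows past the limit in line 1 were thus past it in another line too. Line 3 resembled it in size with 30 members, 24 higher and 6 lower, or 81.1% of 37 rows at a background of 0.584%, with 0.426% higher and 0.158% lower. Line 6 also had 30, 21 higher and 9 lower, at a background of 0.739%, with 0.55% higher and 0.189% lower. The remaining lines had few. In line 5 there were 12, 3 higher and 9 lower, at a background of 0.382%, with 0.207% higher and 0.175% lower. In line 8 there were 7, 5 higher and 2 lower, at 0.204%, with 0.157% higher and 0.0472% lower. In line 7 there were 3, 2 higher and 1 lower, at 0.222%, with 0.206% higher and 0.0159% lower. The rule used these contrasts, so nothing is read from the excess of members over the background.

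The share in line 4 depended on how arrays were scaled. The line means of line 4 had an SD over rows of 0.567, and those of the other lines lay between 0.215 and 0.35. Quantile normalization, which gives every array the same spread of ratios, left 78 rows of line 4 past the limit in place of 522, and 15 of its 54 members. In lines 3, 5, 7 and 8 all of the members past the limit were still past it under that scaling, as were 29 of 30 in line 6, 46 of 52 in line 2 and 26 of 32 in line 1. Centring each array on its median kept 53 of 54 in line 4.

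Of the 28 pairs of lines, 24 shared at least 1 member and 5 shared 10 or more. As deposited, the pairs with the most in common were lines 2 and 4 with 37 members, lines 1 and 3 with 29, and lines 2 and 6 with 24. Lines 4 and 6 shared 13 and lines 4 and 5 shared 10. In 14 pairs all shared members had the same sign, and in 2 pairs all had opposite signs. Those 2 were lines 1 and 4, with 8 members, and lines 4 and 7, with 1. With the sign of line 1 turned, 13 pairs had only the same sign, lines 1 and 4 among them, and 3 had only opposite signs. The order of the pairs depended on the scaling. Under quantile normalization, with line 1 in its deposited direction, lines 2 and 6 shared 34 rows of the same sign. Lines 2 and 4 then shared 12 of the same sign, and lines 1 and 3 shared 32 of opposite sign.

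**Figure D2:**
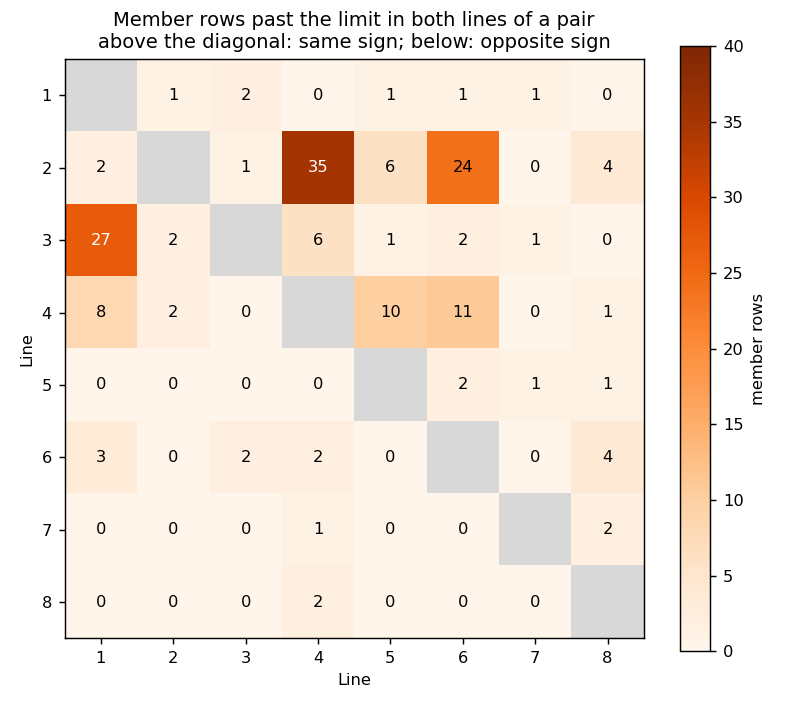
Number of members past the limit in both lines of each pair, with the same sign above the diagonal and with opposite signs below it. The pairs 2 and 4 (35) and 2 and 6 (24) have the highest counts of the same sign, and the pair 1 and 3 (27) the highest of opposite sign, as deposited.

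Lines 2 and 4 shared 35 members of the same sign, 14 higher and 21 lower, and 2 of opposite sign. The 37 were 40.2% of the rows past the limit in line 2 and 7.09% of those in line 4. The 21 lower members had a median of −1.13 in line 2 and −1.41 in line 4. The same 21 were all below 0 in line 6, with a median of −0.71 and a range from −2.32 to −0.277, although only 2 were past the limit there. In line 5, 18 of the 21 were below 0, with 5 past the limit. Line 1 was the exception, with 20 of the 21 above 0 and a median of 0.386. The 14 higher members behaved as the mirror of this. Their median was 1.08 in line 2 and 1.53 in line 4, all 14 were above 0 in line 6, and 11 of 14 were below 0 in line 1. Under quantile normalization 12 rows of the same sign were shared by these lines in place of 35.

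The highest of the members past the limit in 3 lines of one sign was row 3436, higher in lines 2, 4 and 6. Its log2 ratios on the 3 arrays were 1.89, 1.60 and 1.99 in line 2, 1.93, 1.86 and 1.81 in line 4, and 1.05, 1.46 and 1.72 in line 6. Every other line had a mean between −0.0246 and 0.362, so the arrays of lines 2, 4 and 6 did not overlap those of any other line. Rows 6185, 5328 and 5934 were higher in the same lines, with means over the lines past the limit of 1.53, 1.44 and 1.42. Row 3693 was higher in lines 2, 4 and 5 instead, at a mean of 1.44. Its level in line 5 was the least sure, with arrays at 0.67, 1.13 and 1.24, while line 4 stood clear of them at 2.31, 2.44 and 1.86.

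Among the 5 lowest such members, rows 4248, 4179, 3175 and 5155 were lower in lines 2, 4 and 5. Row 4248 was at −2.40, −2.47 and −2.52 in line 4, at −1.04, −1.17 and −1.16 in line 2 and at −1.06, −1.28 and −1.02 in line 5. Line 4 was thus lower than the other lines on every array. In rows 4179 and 5155 the lines were closer together. Row 4179 had means of −1.36 ± 0.064 in line 2, −1.58 ± 0.072 in line 4 and −1.39 ± 0.073 in line 5 (SD, n = 3), and row 5155 of −1.001 ± 0.145, −1.18 ± 0.062 and −1.18 ± 0.068. Lines 6 and 7 were also below 0 in all 4 of these rows, and line 1 was above 0 in all 4. The fifth, row 4790, was lower in lines 2, 4 and 6, with means of −1.24, −1.42 and −1.22. It was at −0.73 in line 8 and above 0 in lines 3, 5 and 7.

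Lines 2 and 6 shared 24 members, all of the same sign, 17 higher and 7 lower, which were 26.1% of the rows past the limit in line 2 and 51.1% of those in line 6. Over all rows the means of these lines correlated at 0.753, the highest of the 28 pairs, and over the 93 members at 0.923. Rows share the arrays and the members were chosen for large values, so neither correlation is a test. Of the 24, 15 were not past the limit in line 4. All 7 lower members were below 0 in line 8 as well, and 16 of the 17 higher ones were above 0 there. Line 8 was past the limit in 2 of the 17 and 1 of the 7. Line 6 in general followed the members of one sign below the limit, with all 10 of the higher and all 24 of the lower members that were not past the limit in line 6 on the members' side of 0. The matching share over all rows was not counted.

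Over all lines, members of one sign tended to keep that sign where they were not past the limit. Of 152 such means of the 27 higher members, 98, or 64.5%, were above 0, and of 176 means of the 31 lower members, 125, or 71%, were below 0. Line 1 departed from this, with 6 of 26 higher and 3 of 30 lower members on the members' side. With its sign turned the shares were 112 of 152, or 73.7%, and 149 of 176, or 84.7%, and without line 1 they were 73% of 126 and 83.6% of 146. Line 3 was on that side in 24 of 27 and 27 of 29. These shares were not counted over all rows. The line means also correlated over all rows, at 0.753 for lines 2 and 6 and 0.386 for lines 2 and 4. For lines 7 and 8 the correlation was −0.215. The leaning is therefore not read as particular to the members.

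Lines 1 and 3 were the pair with the most opposite signs as deposited. They shared 29 members, 74.4% of the rows past the limit in line 1 and 78.4% of those in line 3, and 27 of the 29 were opposite. With the sign of line 1 turned, 27 had the same sign and 2 opposite signs, so this paragraph rests on the deposited direction. Line 1 was lower and line 3 higher in 24 of these, and the reverse held in 3. For 20 members these were the only lines past the limit. In the 24, the median was −1.31 in line 1 and 1.36 in line 3, where the limit of 1 in size held for both lines. The means of these lines correlated at −0.71 over all rows and at −0.694 over the members. The opposition is therefore not read as particular to the members. No mean of these 24 in lines 5, 7 and 8 was past the limit, and their medians there were −0.0529, −0.226 and 0.157. Line 4 was above 0 in 20 of 23, past the limit in 5. Line 6 was above 0 in 19 of 24, past the limit in 3.

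**Figure D3:**
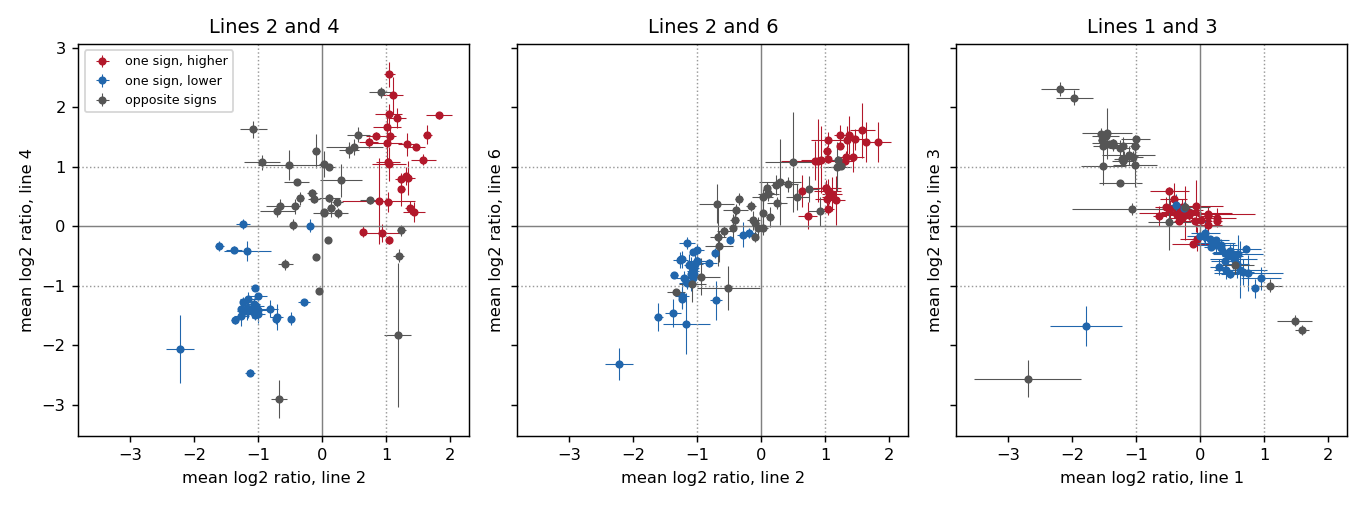
Mean log2 ratio of the members in lines 2 and 4, lines 2 and 6, and lines 1 and 3, with 1 SD of 3 arrays on each axis and dotted lines at the limit of 1 in size. In lines 2 and 6 the members lie along a rising diagonal, in lines 1 and 3 along a falling one, and rows 2332 and 4049 lie apart at the lower left of the third panel.

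In the deposited direction the widest gap between lines was in row 1397. With the sign of line 1 turned, rows 1397, 3976, 3970 and 1159 had one sign, and the widest gaps were 5.26 in row 4049 and 4.31 in row 1632. As deposited, row 1397 was at −1.85, −2.32 and −2.40 in line 1 and at 2.28, 2.45 and 2.21 in line 3. The gap between its line means was 4.51. Line 4 was also higher, at 1.59, 1.63 and 1.40. The arrays of line 1 and those of lines 3 and 4 lay on opposite sides of 0 without exception. Row 3976 had the same order, with −1.97 ± 0.29 in line 1, 2.16 ± 0.127 in line 3, 1.33 ± 0.135 in line 4 and 1.08 ± 0.846 in line 6 (SD, n = 3). The wide SD in line 6 came from a single array at 0.11, beside 1.63 and 1.51. Row 3970 was opposite in lines 1 and 4, at −1.25 ± 0.335 and 2.25 ± 0.096.

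Row 1632 was the widest gap that did not involve line 1. It was at −3.07, −3.11 and −2.54 in line 4, the lowest line mean of any member at −2.91. In line 7 it was at 1.08, 0.93 and 1.40, and in line 8 at 1.08, 1.47 and 1.66. Lines 7 and 8 overlapped each other and were far from line 4. Row 1159 was at −1.01 in line 1 against 1.19 in line 2, 1.47 in line 3 and 1.12 in line 6. Row 5126 was lower in lines 1, 2 and 6, at −1.02, −1.34 and −1.11, and higher in line 3, at 1.04 ± 0.377. It had 8 of 30 cells empty, a count that another member shared and none exceeded. No value was present in line 4 or ancestral 4/diploid for this row.

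Rows 2332 and 4049 were the 2 members in which lines 1 and 3 were both past the limit with the same sign. Row 4049 was at −1.80, −2.84 and −3.45 in line 1 and at −2.30, −2.90 and −2.48 in line 3. In line 2 it was at 1.28, 1.16 and 1.28, and in line 6 at 1.01, 1.05 and 1.01. The arrays of lines 1 and 3 overlapped each other and lay on the other side of 0 from those of lines 2 and 6. The gap between the line means was 3.94, the fourth widest among the members of opposite signs.

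Row 2332 was lower in lines 1, 3, 5 and 7. Its arrays were at −1.14, −2.14 and −2.09 in line 1, −1.34, −2.01 and −1.70 in line 3, −1.33, −1.19 and −1.97 in line 5, and −0.93, −1.32 and −1.45 in line 7. In lines 2, 4, 6 and 8 the means were between −0.189 and 0.00953. No array of the odd-numbered lines overlapped an array of the even-numbered lines. In ancestral 4/diploid the row was at −0.951 ± 0.0834 and in evolved 4/diploid at −0.362 ± 0.207. Turning the sign of line 1 would set line 1 apart from lines 3, 5 and 7 in this row.

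Row 3334 was past the limit in more lines than any other member, namely 5. It was at −2.11, −2.07 and −2.47 in line 2, at −2.38, −2.42 and −1.40 in line 4, at −2.05, −2.06 and −2.21 in line 5 and at −2.01, −2.42 and −2.52 in line 6. Line 8 was less low, at −1.31, −1.26 and −1.47. The arrays of lines 2, 4, 5 and 6 overlapped and, apart from the array of line 4 at −1.40, lay below every array of line 8. Line 7, at −0.955, was just outside the limit, line 3 was at −0.784, and line 1 was above 0 on all 3 arrays with a mean of 0.748.

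**Figure D4:**
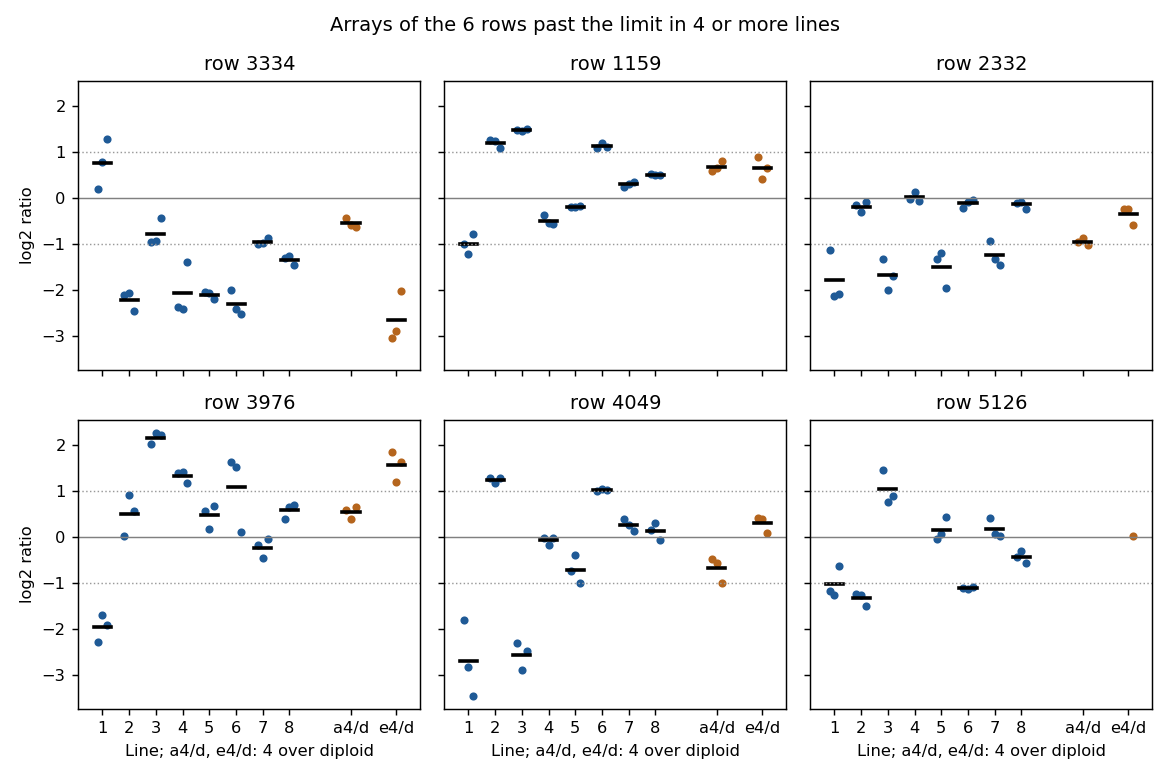
Log2 ratio of each array (points) and mean (bars) in lines 1 to 8 and, in brown, in ancestral 4/diploid (a4/d) and evolved 4/diploid (e4/d), for the 6 members past the limit in 4 or more lines. Row 3334 is low in lines 2, 4, 5, 6 and 8, row 2332 in lines 1, 3, 5 and 7, and the other 4 rows have lines on both sides of 0.

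The limit was not a gap in the values. Just inside it, by the second largest line mean, were rows 747 at 1.0026, 5801 at 1.0034 and 5042 at 1.0071 in size. Just outside were rows 1061 at 0.9991, 242 at 0.9934 and 4926 at 0.9884. The SD of 3 arrays of these means lay between 0.04 and 0.152, which is larger than the distance between the inner and the outer rows. In 5 of these 6 rows line 4 had the largest mean and line 2 the second largest.

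The technical replicates mostly gave the members' ratios the same sign. Of the 220 line means past the limit, 219 kept their sign on each of their arrays. The exception was row 4158 in line 5, with arrays at 2.84, 1.63 and −0.48. Every array was at least 1 in size for 164, or 74.5%. The same arrays chose these means, so both counts were largely set by the rule and are a description. When the rule was applied to 2 of the 3 replicate numbers and the third was read, the sign was the same for 209 of 209, 191 of 192 and 235 of 241 values. The held-out array was at least 1 in size on the same side for 83.7%, 85.9% and 72.2% of them. Of the rows so chosen, 74.2%, 75.6% and 62.7% were past the limit in 2 lines on the held-out arrays alone.

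The members were spread through the table, from row 106 to row 6374, with 36 of them before its middle row. Only 2 were adjacent, rows 3574 and 3575, and these and row 3577 were higher in lines 2 and 4. No empty cell was found for 93.5% of members, beside 89.4% of all rows, and 0 floor cells, which hold the lowest value the table allows, lay among them. The median SD of a member over 3 arrays was above that of all rows in 8 of 8 lines.

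The comparison of evolved 4 with the diploid was the contrast the rule did not use. It asked how far the members stood from diploid cells in the evolved clone of line 4. A row was called where limma's Benjamini-Hochberg adjusted p over all rows was under 0.05 and the mean was at least 1 in size. Of 92 members tested, 14, or 15.2%, were called, 9 higher and 5 lower than the diploid, beside 80 of 6225 rows, or 1.29%, over the whole table. Over all rows, 0.771% were called higher and 0.514% lower. Without replicate 2 of every group, 9 of 81 members then tested, or 11.1%, were called, beside 1.36% of all rows. The methods' t-test at its threshold, 2-fold and p under 0.005, called 6 of 92 members and 0.659% of all rows. After Benjamini-Hochberg adjustment it called 0 members and 0 of 6225 rows. With no fold minimum 71 members passed limma's adjusted p, beside 51.5% of all rows. The evolved 4 cells are of the same clone as in line 4, and the diploid is that of ancestral 4/diploid, so evolved 4/diploid is not independent of either.

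The called members that were past the limit in line 4 had the direction of line 4. Evolved 4/diploid shares the evolved 4 clone with line 4, and the rule kept ancestral 4/diploid under 1 in size. The direction of these calls was thus largely set by the choice of rows, and it is a description. Of 25 members higher in line 4, 7 were called, all higher than the diploid, and of 29 lower in line 4, 5 were called, all lower. Together these were 22.2% of 54. Among 389 rows past the limit in line 4 and in no other line, taken with the same exclusions, 14, or 3.60%, were called. Of 38 members that were not past the limit in line 4, 2, or 5.26%, were called, beside 2 of 60 rows, or 3.33%, past the limit in exactly 1 line other than line 4. The median size of the ratio was 0.7 in the members past the limit in line 4 and 0.563 in the rows past it in line 4 only. The difference between these groups of rows was not tested.

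Row 3334 was the lowest member against the diploid. In evolved 4/diploid it was at −3.04, −2.91 and −2.02, and in ancestral 4/diploid at −0.448, −0.582 and −0.632 (limma adjusted p for evolved 4/diploid = 1.69e-11, n = 3 arrays). The 2 comparisons did not overlap on any array. Rows 1632 and 4248 were next, at −1.92 ± 0.608 and −1.71 ± 0.0464 in evolved 4/diploid, against −0.699 ± 0.132 and −0.139 ± 0.501 in ancestral 4/diploid (SD, n = 3 arrays).

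Row 3436 was the highest. It was at 1.80, 2.02 and 1.64 in evolved 4/diploid and at 0.96, 0.552 and 1.22 in ancestral 4/diploid (limma adjusted p for evolved 4/diploid = 7.97e-12, n = 3 arrays). Both tetraploids were above the diploid, and the evolved one was further from it. Rows 1397 and 3976 followed, at 1.79 ± 0.0575 and 1.55 ± 0.33 in evolved 4/diploid and 0.581 ± 0.178 and 0.54 ± 0.138 in ancestral 4/diploid. The 2 called members that were not past the limit in line 4 were row 4070, at 1.27 ± 0.0647, and row 4144, at 1.05 ± 0.138. In line 4 these were at 0.744 and 0.621. The largest limma adjusted p among the 14 called members was 2.08e-07.

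Side by side, the members' median distance from the diploid was larger in evolved 4 than in ancestral 4. The median size of the ratio was 0.616 in evolved 4/diploid and 0.368 in ancestral 4/diploid, while over all rows it was 0.207 and 0.286. The members lower in line 4 were at 0.756 and 0.189. Those higher in line 4 were nearly level, at 0.536 and 0.54. Members not past the limit in line 4 went the other way, at 0.361 and 0.462, as did those of opposite signs, at 0.366 and 0.48. The ancestral ratios of the members lay between −0.986 and 0.993, since the rule leaves out any at 1 or more. Of 91 members with both means, 31, or 34.1%, were nearer the diploid in evolved 4, beside 3598 of 6135 rows, or 58.6%. The rule sets this share in part through its limit on ancestral 4, so it is a description.

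The distance is also given by direction in line 4. That split uses the same ancestral 4 and evolved 4 clones as the diploid comparisons. The values here follow in part from it and are a description. Of 28 members lower in line 4 with both means, 1 was nearer the diploid in evolved 4, and of 25 higher in line 4, 10 were. The lower members had a median of −0.00998 in ancestral 4/diploid and of −0.755 in evolved 4/diploid. The higher members had a median of −0.377 in ancestral 4/diploid and of 0.536 in evolved 4/diploid. Among the 39 members not past the limit in line 4, 20 of 38 were nearer the diploid in evolved 4.

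**Figure D5:**
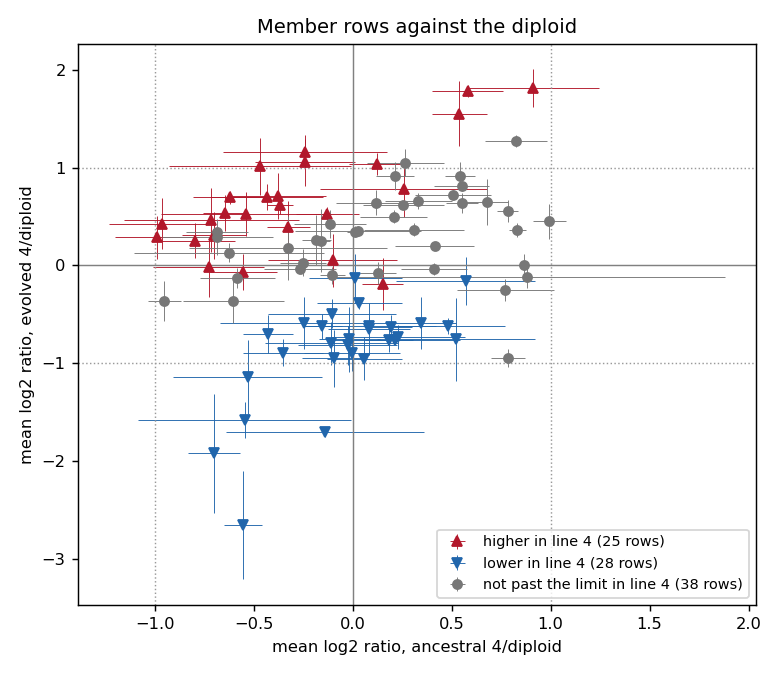
Mean log2 ratio of the members in ancestral 4/diploid and evolved 4/diploid, with 1 SD of 3 arrays on each axis, for 25 members higher in line 4, 28 lower and 38 not past the limit there. All 28 lower members drawn lie below 0 on the vertical axis, and 22 of the 25 higher members lie above it.

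By sign class, 26 of the 27 members of one higher sign were above the diploid in evolved 4, with a median of 0.529, and the exception was at −0.0668. None of the 31 of one lower sign was above it, and their median was −0.733. In ancestral 4/diploid the same classes had medians of −0.242 and 0.0135. The members of opposite signs were above the diploid in 25 of 34 cases in evolved 4. Most members of one sign were past the limit in line 4, which shares its evolved cells with this comparison.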

How the data were processed

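The authors hybridised RNA of paired cultures to spotted oligonucleotide arrays, left out spots with an intensity under 500 in GeneSpring GX, and deposited log2 ratios of the first culture (Alexa Fluor 647) over the second (Alexa Fluor 555), normalized by LOWESS within each array. Versions and genome build are not given in the sources used here. Without the scanner intensities, which were not used, signal over background is unknown. Precision is limited by the number of arrays. The table held 3053 empty cells, and 84 cells at −6.6439, the log2 of 0.01, were set to missing as a floor.

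Groups came from the sample titles. A line mean needed values on at least 2 of 3 arrays. The members, rules and alternatives were chosen with earlier results of these data known. The only test was a fit of group means to all 30 arrays (lmFit and eBayes of limma 3.58.1, in R 4.3.3) with Benjamini-Hochberg adjustment over all rows. It covers technical spread only. It was tested on simulated data. Counts were made in Python 3.11.15 with numpy 2.4.6, pandas 2.3.3 and scipy 1.17.1, and figures with matplotlib 3.10.9.

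Rows named one by one were those past the limit in 4 or more lines, the 5 highest and 5 lowest of one sign in 3 lines, the 5 of widest gap, the 3 highest and 3 lowest in evolved 4/diploid, and the 3 on either side of the limit. Rows 4070, 4144, 4158, 3574, 3575 and 3577 were added after their values were seen. Of the identifiers, 5840 matched a locus tag of the yeast reference table and 537 did not. Names were to be used only if ribosomal rows correlated at 0.2 or more on average. For 45 pairs of rows with names of duplicated ribosomal genes the median correlation was 0.0148, with 23 above 0, so no name was used.

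Replicate numbers were taken as names of technical replicates. The alternatives were other scalings, filters, limits and fold minimums, each replicate or line left out, the replicate number as a block, and the methods' t-test, here a t-test at the methods' threshold of 2-fold and p under 0.005.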

Additional observations from a re-analysis of the deposited data

Results flagged for a closer look

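Line 4 had 522 rows past the limit, against 13 to 92 in the other lines, and its count stood apart from the other lines by its gap to the nearest. Of 25 measures examined in this way 1 stood apart. A chance figure of about 1.25 is only nominal here, since 22 of the measures were line means of named members, chosen on those values. In line 4, 10.3% of the 522 rows were members. Under quantile normalization line 4 had 78 rows past the limit and the other lines 44 to 82.

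In 7 of the rows named for 4 or more lines or for a wide gap, lines past the limit had means of opposite sign. The distance between the highest and the lowest line past the limit was 4.51 in row 1397, 4.31 in row 1632, 4.13 in row 3976, 3.94 in row 4049, 3.51 in row 3970, 2.48 in row 1159 and 2.37 in row 5126. These values chose the rows, so the difference was not tested. Line 1 is on one side in all of them but row 1632. With its sign turned, rows 1632, 4049 and 5126 still had lines of opposite sign.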

How the results depend on the processing

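Of 75 alternative values of the comparisons, 58 stayed close to the value reported, meaning within 1.5 times for a count and within 1 SD of the replicates for a share, and 17 did not. The 93 members became 61 without line 2, 60 without line 4, 222 at a limit of 0.8 and 13 at a limit of 1.5. Quantile normalization gave 105 rows, and 71 rows were in both, 76.3% of the 93 and 67.6% of the 105. The share of one sign, 62.4%, became 91.4% without line 1, 42.6% without line 2, so that opposite signs were then the larger class, 80.6% without line 3, 53.3% without line 4, 56.4% without line 6 and 92.5% with the sign of line 1 turned, and it was 71.6% and 69.2% at limits of 0.8 and 1.5. The calls in evolved 4/diploid, 14 members, became 71 with no fold minimum, 6 by the methods' t-test at its threshold and 0 after Benjamini-Hochberg adjustment of that test. At an unadjusted p under 0.05 limma gave 74 of 92 members, or 80.4%, beside 56.5% of all rows. The cause was not tested, apart from the stated change of limit, fold or lines.

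Leaving out each replicate number in turn gave 82 to 102 members, a share of one sign of 62.7% to 63.4%, 24 to 26 pairs of lines with a shared member, 28.3% to 36.8% of members nearer the diploid in evolved 4, and 9 to 16 calls in evolved 4/diploid, with 9 without replicate 2. With the replicate number as a block the calls stayed 14. The numbers do not pair the arrays, since deviations of arrays of one number correlated at 0.00187 on average, from −0.518 to 0.577. Chosen after seeing the data were the held-out reading, the scalings of the line pairs and of the named rows, and the turned sign of line 1 in pairs, gaps and means below the limit. The share of rows past the limit in 2 lines on held-out arrays averaged 70.8%, and 63.2% under quantile normalization. Among 132 alternative values for the 22 named members, 9 moved by more than the replicates' spread, all under quantile normalization, which put rows 747 and 5042 at means of −0.976 and −0.944 over their lines. With 1 clone a line and 3 technical arrays, the spread between cultures of a line is unknown.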

Other observations

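Row 2332, whose odd-numbered lines lie apart from its even-numbered ones, was looked at beside the whole table, after its values were seen. The study's methods say that the evolving lines carried one of a pair of drug resistance markers in turn, and which line carried which is not given in the sources used here. Leaving out identifiers that begin with Q, 6044 rows had a mean in all 8 lines. Of these, 249, or 4.12%, had no overlap between the means of lines 1, 3, 5 and 7 and those of lines 2, 4, 6 and 8, and among 89 members 14, or 15.7%, had none. In 8 rows the averages of these lines also differed by at least 1, and all 8 were members, namely rows 1344, 2332, 2517, 3436, 4012, 4790, 5328 and 6185. In row 2332 the odd-numbered lines held the large ratios, at −1.79 to −1.24. In the other 7 the even-numbered lines did. The members were chosen on these line means, and the difference was not tested.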
